A study of Mus musculus with 88 samples.

Results

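This report describes the autosomal genes that encode subunits of mitochondrial complexes I, III and IV and of the ATP synthase (complex V), across mouse embryonic stem cells (ESCs) and fibroblasts profiled by RNA-seq. They were taken by gene name, as the rows named Nduf followed by a, b, c, s or v and a number, the rows of the Cox4i to Cox8a families, and the rows beginning with Uqcr or Atp5. Of 21942 loci in the expression table, 75 names matched. The 3 on the X chromosome (Ndufa1, Ndufb11 and Cox7b) were left out by the rule, and none lay on the mitochondrial chromosome. The remaining 72 all reached 1 RPKM (a read density per kilobase of transcript, scaled to library size) in at least 2 libraries. They comprise 34 genes named for complex I, 8 for complex III, 13 for complex IV and 17 for complex V, on 18 chromosomes. No measured value other than that low minimum chose them. Cox4i1 was not analysed here.

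In oxidative phosphorylation, complexes I, III and IV of the inner mitochondrial membrane pass electrons from NADH to oxygen and pump protons, and the ATP synthase uses the proton gradient to make ATP. Each of these complexes joins a few subunits encoded in mitochondrial DNA with many encoded in the nucleus, and the nuclear genes are known for shared activation by factors such as NRF1, GABPA and YY1. Mouse pluripotent cells are known to use both glycolysis and respiration, with a larger part for respiration in the naive state than in the primed state.

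The 26 RNA-seq libraries came from F1 hybrids of 2 crosses. From 129X1/SvJ and C57BL6 (here the B6 cross) there were 16 ESC lines at passage 3, 4 in each of 4 media, and each medium had 2 XX and 2 XY lines. From 129X1/SvJ and MSM/Ms (the MSM cross) there were 4 ESC lines in 2i (2 XX, 2 XY) and 2 in serum, labelled S (1 XX, 1 XY), all at passage 3. That cross also had 1 library labelled 2i-S, from XX line 15 at passage 3+14, 2 libraries of embryonic fibroblasts (MEFs) at passage 1, and 1 of fibroblasts labelled 2i MEF, also from line 15, at passage p5+p1. The medium 2i contains inhibitors of MEK and GSK3. The labels do not spell out t2i and a2i. From general knowledge of the study and not from its labels, t2i is taken to be 2i with a lowered dose of the MEK inhibitor, and a2i to have a Src inhibitor in its place. Line 15 supplied 3 of the libraries, the title and description of each MEF library disagree on its sex, and nothing in the labels says that the lines came from separate embryos, so p-values measure the spread between these lines. The 62 bisulfite samples of the series were not analysed here.

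RPKM totals ranged from 624274 to 934309 over the libraries. Read counts were not given, and low values placed relative depth only roughly, between 0.768 and 1.85 times that of the 2i XX line c3. Pluripotency markers summed to 7464 to 15614 RPKM in the 23 ESC libraries and to 0.483 to 2.33 RPKM in the 3 fibroblast libraries. The B6 serum lines stood apart: their 16 fibroblast markers summed to 634 to 1030 RPKM, against 3.5 to 12.2 RPKM in the other B6 ESC lines, and by those markers they held 7.62% to 12.8% of the MEF level. In the MSM serum lines that share was 0.290% and 1.11%. The B6 and MSM libraries also differ in the table itself, because all 13 mitochondrial and 183 Y-linked loci are listed at 0 in every MSM library.

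The promoters of some of the 72 genes are shown first. RefSeq (GRCm38.p6) promoter windows, from 250 bases before to 50 after the start, were given for 58 of the 72 genes. Each sequence is the strand of the gene, 5′ to 3′, and ends before both the RefSeq start and the locus as the expression table gives it. Cox6b1, Cox5a, Uqcr10 and Ndufb4 are shown because they were higher in 2i than in serum in both crosses, and no motif searched was present in their windows. Cox6a1 was also higher in both crosses, and its 150 bases are shown because they hold the NRF1 motif GCATGCGC on both strands. Ndufa6, Uqcr11 and Atp5g3 are shown as examples of a motif, with 1 NRF1, 1 GABPA/ETS (CCGGAAGT) and 1 ESRR (TCAAGGTCA) match in that order. The window of Uqcr11 also holds an NRF1 match, outside the bases shown. Capitals mark a motif match on either strand.
Cox6b1, chr7:30626152-30626251, minus strand: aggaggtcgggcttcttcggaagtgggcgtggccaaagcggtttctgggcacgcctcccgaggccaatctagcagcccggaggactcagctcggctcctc
Cox5a, chr9:57521131-57521230, plus strand: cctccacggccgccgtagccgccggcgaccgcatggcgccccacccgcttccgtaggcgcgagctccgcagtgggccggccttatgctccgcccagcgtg
Uqcr10, chr11:4704345-4704444, minus strand: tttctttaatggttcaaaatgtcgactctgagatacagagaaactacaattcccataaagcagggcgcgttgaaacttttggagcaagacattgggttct
Ndufb4, chr16:37654454-37654553, minus strand: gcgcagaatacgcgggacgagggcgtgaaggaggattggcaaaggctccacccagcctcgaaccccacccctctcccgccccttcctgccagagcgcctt
Cox6a1, chr5:115348982-115349131, minus strand: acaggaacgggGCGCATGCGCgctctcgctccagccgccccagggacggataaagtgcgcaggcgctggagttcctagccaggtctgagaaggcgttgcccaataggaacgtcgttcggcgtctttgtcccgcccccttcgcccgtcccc
Ndufa6, chr15:82354292-82354391, minus strand: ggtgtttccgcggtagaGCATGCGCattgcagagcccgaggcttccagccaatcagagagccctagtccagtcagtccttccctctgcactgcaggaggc
Uqcr11, chr10:80406831-80406930, minus strand: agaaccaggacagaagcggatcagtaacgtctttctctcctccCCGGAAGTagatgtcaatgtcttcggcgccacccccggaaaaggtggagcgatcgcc
Atp5g3, chr2:73911327-73911426, minus strand: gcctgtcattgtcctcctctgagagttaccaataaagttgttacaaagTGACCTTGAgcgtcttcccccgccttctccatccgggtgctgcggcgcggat

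Counted per gene over both strands of the 300-base windows, NRF1 matches were present in 9 of 58 genes (15.5%, against 3.05% of 27025 genes with a window). YY1 (AAGATGGCG) was present in 7 (12.1% against 1.64%), GABPA/ETS in 5 (8.62% against 4.31%) and ESRR in 1 (1.72% against 0.466%). In Cox6a1, Atp5g2, Atp5k, Ndufa11 and Uqcrc1 a match on one strand overlapped a match on the other. The YY1 matches of Atp5j2, Ndufa9, Ndufc1, Ndufs4, Ndufs6 and Ndufs7 all began 22 to 35 bases after the start, and that of Atp5j began 88 bases before it. At least 1 of the 4 motifs was present in 21 genes (36.2%, against 8.93% of all). The share was 38.2% among 68 mitochondrial ribosomal protein genes and 32.7% among 55 cytosolic ones. Among the genes higher in 2i than in serum in the B6 cross, 14 of 36 (38.9%) had a match, and among the others 7 of 22 (31.8%). Among those higher in both crosses the share was 3 of 11 (27.3%). The sequence TATAAA was in the 50 bases before the start in 0 of 58 genes and in 3.15% of all genes, and the median GC content of the 250 bases before the start was 55.2% against 52.4%. A match describes letters in a window and is no evidence of binding.

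The respiratory chain genes were among the abundant transcripts of these ESCs. Averaged over the 23 ESC libraries, 66 of the 72 stood at 50 RPKM or more and 60 at 100 RPKM or more, and the median gene was at 288 RPKM, against 10.6 RPKM over all loci that reached the minimum. By complex the medians were 186 RPKM for complex I, 439 for III, 574 for IV and 537 for V. Atp5b, the catalytic beta subunit of the ATP synthase, was highest at 2854 ± 278 RPKM (SD, n = 23), and Cox6b1, a subunit on the outer face of complex IV, was next at 1420 ± 351. The 6 genes under 50 RPKM were Ndufa11 (36.7), Atp5sl (29.1), Atp5s (6.87), Cox7b2 (6.78), Cox4i2 (1.27 ± 0.874) and Cox6a2 (0.536 ± 0.768). Cox6a2 is the heart and muscle form of its subunit, Cox4i2 the form known from lung, and Cox7b2 a form known from testis. Atp5sl, despite its name, is known as an assembly factor of complex I, and Ndufa4, named for complex I, is known as a subunit of complex IV. The loci of 18 of the 72 genes overlap another gene of the table. Ndufs1 at 82.4 RPKM overlaps Eef1b2 at 2932 RPKM, and the locus listed for Atp5o spans Itsn1, Donson and Cryzl1. The library kit keeps strand, but no source used here says whether counting used it.

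**Figure D1:**
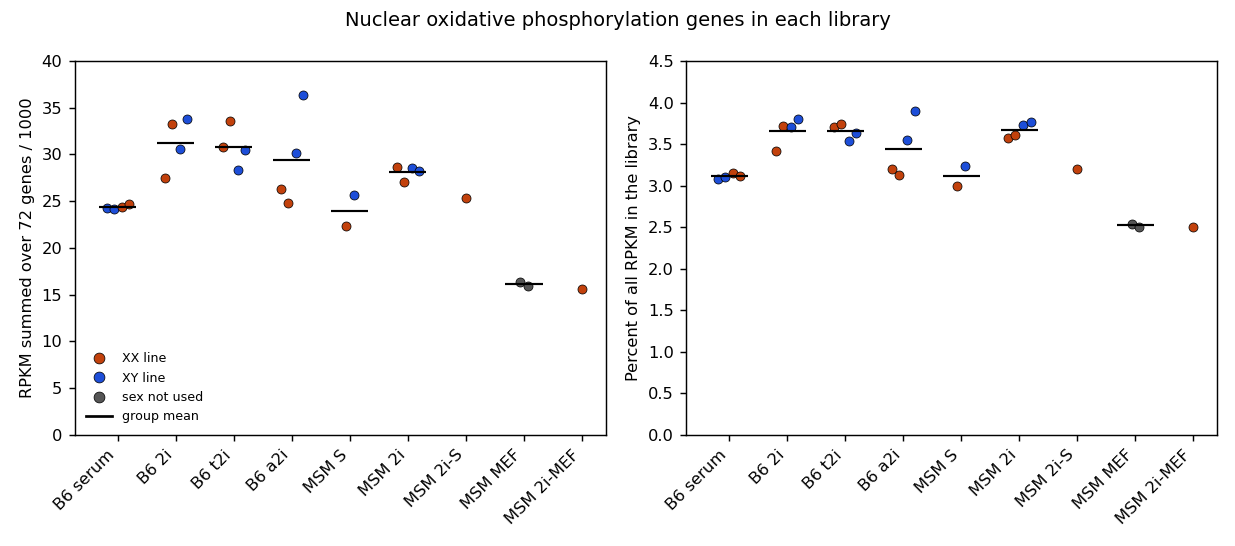
Summed RPKM of the 72 genes, and their percent of all RPKM, for each of the 26 libraries by cross and medium. The 4 B6 serum lines sit between 24173 and 24704 RPKM, and the 3 fibroblast libraries between 15617 and 16300 RPKM.

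The first comparison was between ESCs derived in 2i and in serum in the B6 cross. The 72 genes summed to 27446 and 33307 RPKM in the 2i XX lines c3 and c4, and to 30593 and 33786 RPKM in the XY lines c2 and c6. In the serum lines the sums were 24173 to 24704 RPKM. All 4 lines in 2i were above all 4 in serum, and the genes' share of all RPKM was 3.41% to 3.81% in 2i and 3.08% to 3.15% in serum. With limma on log2(RPKM + 1), 43 of the 72 genes were higher in 2i and 1 was lower at an adjusted p under 0.05. Of all 13150 genes tested, 16.8% were higher and 30.7% lower. The median difference, on the log2(RPKM + 1) scale used for every difference in this account, was 0.30 for the 72 genes and -0.09 for all genes. Every 2i line was above every serum line for 30 genes (41.7%, against 9.16% of all genes), and below for Cox4i2 alone (22.3% of all genes).

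Other abundant genes were also higher in 2i. Among 1252 genes outside the 72 with a mean of at least 100 RPKM in the B6 libraries, 32% were higher in 2i and 12.0% lower, with a median of 0.12. The cytosolic ribosomal protein genes were higher for 50 of 75 with a median of 0.35, those of the mitochondrial ribosome for 26 of 77 (0.16), and those of the proteasome were higher for 16 and lower for 4 of 37 (0.19). The 16 fibroblast markers were all lower in 2i, with a median of -4.52. The primitive endoderm and trophectoderm markers summed to 105 to 299 and 59.5 to 164 RPKM in serum against 11.9 to 21.0 and 20.0 to 34.6 RPKM in 2i. Endoderm markers Col4a1 (3.98), Dab2 (5.80), Pdgfra (4.96) and Gata6 (1.76) were also higher in MEFs than in MSM 2i ESCs. Gata4 (-0.85) and Lama1 (-3.34) were lower there, so the endoderm sum is not separate from the fibroblast signal. With a fibroblast share taken from the 16 fibroblast markers subtracted and the remainder scaled back, 36 of the 72 genes were higher and 1 lower, with a median of 0.27. The share of all genes called after that subtraction is not given here. Fewer transcripts per ESC and more cells of another type cannot be told apart in bulk RNA.

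Complex IV had the highest median of the 4 complexes. Of its 13 genes 10 were higher and 1 lower, with a median of 0.45. Cox6b1 (chr7:30616860-30626151, mm10) measured 1656, 2010, 1516 and 1840 RPKM in the 2i lines c3, c4, c2 and c6 and 1002, 1008, 1022 and 1040 RPKM in the serum lines 10, 16, 17 and 46. The groups did not overlap, the serum lines were nearly level, and the difference was 0.78 (SE 0.10, adjusted p = 4.23e-05). Cox5a (chr9:57521231-57532424), a matrix-side subunit, measured 784, 853, 618 and 660 RPKM in 2i and 396, 446, 508 and 592 RPKM in serum. Its lowest 2i line was just above its highest serum line, and in both media the XX lines were above the XY lines (difference 0.59, SE 0.08, adjusted p = 3.9e-05). Cox6a1, the form of its subunit found in most tissues, measured 578, 622, 868 and 835 RPKM in 2i and 452 to 495 RPKM in serum (0.58, SE 0.07). Here the XY lines were the higher in 2i. Cox5b rose by 0.29 and Cox7a2 by 0.38. The testis form Cox6b2 measured 239, 279, 316 and 312 RPKM in 2i and 172, 164, 156 and 240 RPKM in serum, which overlapped by 1 line (0.65, SE 0.17, adjusted p = 0.0079). The muscle form Cox7a1 did not pass (0.20, adjusted p = 0.438).

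The lowest genes of complex IV passed the test at levels of a few RPKM or less. Cox4i2 was the gene that was lower, at 0.532, 0.657, 0.649 and 1.56 RPKM in 2i and 1.68 to 2.42 RPKM in serum (-0.75, SE 0.22, adjusted p = 0.0145). Cox7b2 was higher in 2i, at 4.98, 11, 0.608 and 4.46 RPKM against 0.350 to 1.33 RPKM, with XY line c2 inside the serum range. Cox6a2 was also called higher, but it was listed at 0 in both XX lines and at 2.02 and 2.88 RPKM in the XY lines. With 0.1 RPKM added in place of 1, Cox6a2 was no longer called, and quantile normalization ended the call of Cox4i2.

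In complex I 19 of 34 genes were higher and 0 lower in 2i with limma (23 and 0 before adjustment), with a median of 0.30. Ndufb4 (chr16:37647169-37654453), a membrane-arm accessory subunit, measured 121, 191, 138 and 162 RPKM in 2i and 88.4 to 95.7 RPKM in serum (0.70, SE 0.17). Ndufs4, an accessory subunit whose loss causes complex I deficiency, measured 67.8, 104, 87.0 and 117 RPKM in 2i and 56.6 to 59.7 RPKM in serum (0.66, SE 0.14). The groups did not overlap for either gene, and line c3 was the lowest of the 2i lines for both. Of the catalytic core, which carries electrons from NADH to ubiquinone, Ndufv2 (0.53) and Ndufs7 (0.23) rose. Ndufs1 (0.09), Ndufs3 (0.14), Ndufs8 (0.28) and Ndufv1 (0.00) did not pass the test.

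Complex III rose in 5 of 8 genes, with a median of 0.33. Uqcr10 (chr11:4701972-4704342), one of its small subunits, measured 847, 1139, 816 and 997 RPKM in 2i and 530, 537, 549 and 655 RPKM in serum (0.73, SE 0.13, adjusted p = 0.000473), with no overlap. Uqcrb, another small subunit, measured 437, 534, 401 and 529 RPKM in 2i and 283 to 322 RPKM in serum (0.66, SE 0.10). The large core proteins Uqcrc1 (0.30) and Uqcrc2 (0.47) rose, and the iron-sulfur protein Uqcrfs1 was at 0.18 with an adjusted p of 0.0914.

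The ATP synthase rose in 9 of 17 genes, with a median of 0.25. Its gamma subunit Atp5c1 rose by 0.43 and the stalk subunit Atp5o by 0.49. Atp5g1, Atp5g2 and Atp5g3 encode the same mature c-ring protein, and Atp5g1 (0.42) and Atp5g3 (0.27) rose while Atp5g2 (0.13) did not pass. The catalytic Atp5b measured 2787, 2859, 3651 and 3363 RPKM in 2i and 2696, 2560, 2580 and 2935 RPKM in serum. The groups overlapped, the XY lines being high in 2i, and the difference of 0.23 (adjusted p = 0.0291) turned to -0.11 under quantile normalization and lost its call under median ratio scaling. Its partner Atp5a1 did not pass (0.12).

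Other genes of the pathway were counted from lists, to be read against 16.8% of all genes higher and 30.7% lower. Of 9 genes of complex II and the electron carriers, 5 were higher and 1 lower, with Etfa at 0.44 and Etfb at 0.43, the subunits of the electron transfer flavoprotein, and its dehydrogenase Etfdh at -0.28. Of the complex I assembly factors 3 of 13 were higher and 1 lower (Ndufaf5 0.77, Ecsit -0.27), and of the complex IV assembly factors 6 of 22 were higher (Pet100 0.42, Sco1 0.34). Of 13 tricarboxylic acid cycle genes 4 were higher and 1 lower, led by the NADP-dependent Idh2 (0.82) and the Idh3 subunit Idh3b (0.60), with Suclg2 at -0.51. Of 14 regulators of mitochondrial genes the only call was the nuclear receptor Esrra, at -0.61. The 3 X-linked subunits were all higher (median 0.41). Of 12 mtDNA-encoded subunits limma called 0 (0 higher and 1 lower before adjustment), and their median was -0.08.

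The number of calls depended on how libraries were scaled, and the excess over all genes shrank under quantile normalization. Quantile normalization left 37 of the 72 genes higher and 0 lower, but moved the median of all genes by more than 0.1, from -0.09 to 0.08, and the share of all genes called higher and lower to 29.5% and 21.0%. The median of the 72 genes was then 0.21, and Cox5b and Atp5g3 were no longer called. Scaling to equal RPKM totals gave 35 higher and 1 lower with a median of 0.18, against 11.1% and 36.6% of all genes and a median of -0.20. It ended the calls of Ndufs7, Uqcrc1, Atp5g3 and Pet100, and removing the fibroblast share ended those of Cox7a2, Ndufs7, Pet100 and Etfdh.

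**Figure D2:**
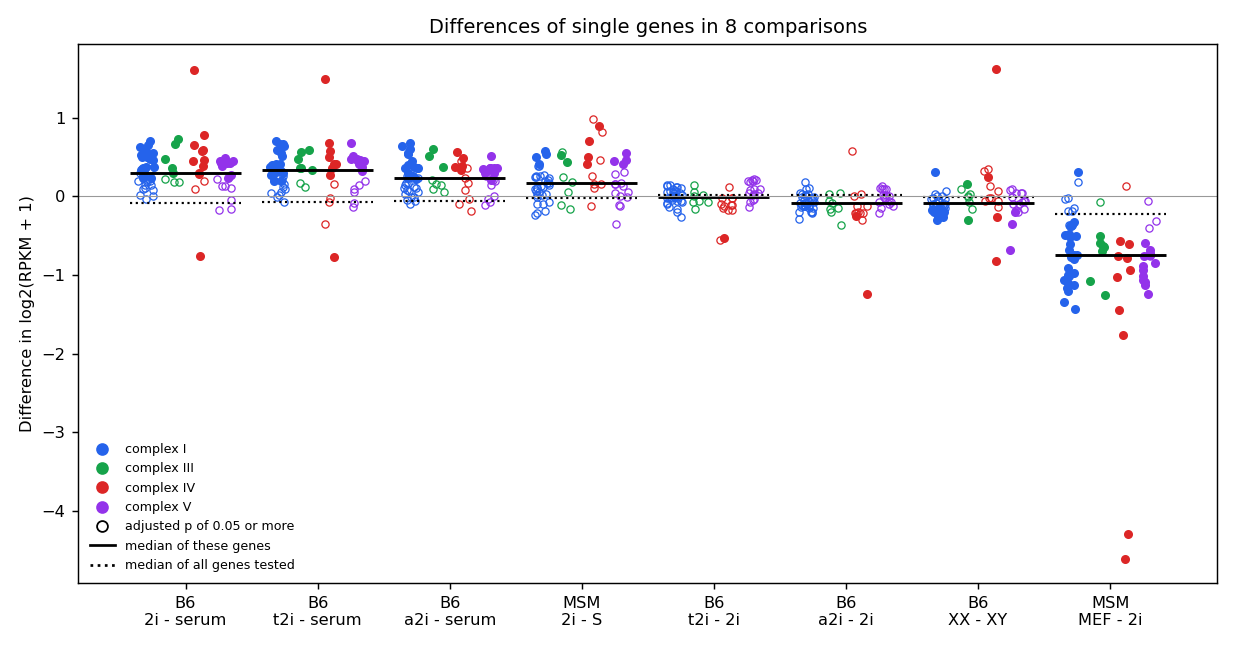
Differences on the log2(RPKM + 1) scale for each of the 72 genes by complex in 8 comparisons. Filled points were called at an adjusted p under 0.05, the solid line is the median of these genes and the dotted line that of all genes tested. Cox7b2, listed at 0 in the MEFs, is not drawn in the MEF comparison, which takes 2i at the mean of XX and XY lines and where nearly all points lie below 0.

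The modified 2i media were compared with the same 4 serum lines, so these results share their controls with the comparison above. In t2i, 47 of the 72 genes were higher than in serum and 1 was lower, against 15.3% and 28.5% of all genes, with a median of 0.33 (all genes -0.07). Every t2i line was above every serum line for 39 genes (9.43% of all genes) and below for Cox4i2 alone (21.9%). In a2i, 32 were higher and 0 lower with limma (38 and 0 before adjustment), against 12.4% and 25% of all genes, with a median of 0.24 (all genes -0.06). The a2i lines stood wholly above serum for 17 genes (6.54% of all genes) and wholly below for 0 (16.9%); the 17 included Cox6b1, Cox6a1, Uqcrb, Atp5g3 and Ndufs4. The spread between lines was wide in a2i: the genes summed to 26265 and 24824 RPKM in its XX lines a4 and a18 and to 30152 and 36398 RPKM in its XY lines a1 and a3. Without line a3, 17 genes were called, without a4, 20, and without serum line 10, 21. Fewer lines can lower the calls of any gene, and the shares of all genes in these fits are not given here.

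Few of these genes were called between the 2i media. Between t2i and 2i, 0 of the 72 were higher and 1 lower with limma (3 and 5 before adjustment), against 4.19% and 3.89% of all genes, with a median of -0.01. The gene called was Cox6a2, at 0 to 0.544 RPKM in t2i. Between a2i and 2i, 0 were higher and 2 lower (1 and 8 before adjustment), against 7.94% and 5.85%, with a median of -0.08. These were Cox7b2 (-1.25) and Cox5a, which measured 612, 587, 575 and 647 RPKM in a2i, overlapping the 2i range of 618 to 853 RPKM by 1 line (-0.26, SE 0.08, adjusted p = 0.0426). Neither was called without the filter on low values. Between a2i and t2i none was called in either direction with limma (2 higher and 5 lower before adjustment), against 0.707% and 0.297% of all genes. A result that missed the threshold does not show that the media gave the same levels. Lines of 1 medium and sex differed by medians of up to 0.30 over these genes.

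The MSM cross repeated the comparison of 2i with serum with fewer lines, none shared with the B6 cross. The 72 genes summed to 27038 to 28651 RPKM in the 4 2i lines and to 22376 and 25618 RPKM in the S lines 8 (XX) and 12 (XY). Of 71 genes tested, 14 were higher in 2i and 0 lower with limma (19 and 0 before adjustment), against 8.36% and 8.67% of all genes, with a median of 0.16 (all genes -0.02). Every 2i line was above both S lines for 22 of the 72 genes (17.0% of all genes), and below for Ndufa10 alone (20.4%). Among 1180 other genes with a mean of at least 100 RPKM, 7.46% were higher and 10.4% lower, with a median of -0.07. Only 2 of 74 cytosolic ribosomal protein genes were higher in this cross, and of the mitochondrial ribosome 1 was higher and 4 were lower. Fewer were called without either S line, but each such fit holds 1 S library, where calls can fall for any gene. Without a 2i line the count was 6 for either XY line and 9 for XX line 2. The shares of all genes in these fits are not given here.

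In the MSM cross too, complex IV had the highest median (0.43), and 4 of its 12 tested genes were higher. Cox5a measured 833, 861, 586 and 626 RPKM in the 2i lines 15, 2, 20 and 23 and 402 and 368 RPKM in the S lines (0.89, SE 0.12, adjusted p = 0.00309). Cox6b1 measured 1398, 1393, 1674 and 1612 RPKM in 2i and 814 and 1068 RPKM in S (0.70, SE 0.10, adjusted p = 0.00436). For both genes the groups did not overlap. Uqcr10 measured 735, 649, 737 and 810 RPKM against 507 and 511 (0.52, SE 0.11), and Ndufb4 measured 137, 114, 118 and 109 RPKM against 80.4 and 78.6 (0.58, SE 0.12). Both again did not overlap. Cox7a1 (0.98, adjusted p = 0.0507) and Cox6b2 (0.82, adjusted p = 0.133) had large differences that did not pass. Few genes of the assembly factor, carrier, tricarboxylic acid cycle and regulator lists were called, where all genes gave 8.36% higher and 8.67% lower. Only Idh2 (1.25), Idh3b (0.50), Etfb (0.55) and the copper chaperone Cox17 (0.53) were called higher. Only Ecsit (-0.70) and the mtDNA-binding factor Tfam (-0.39) were called lower, Tfam with its call lost under each scaling.

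Of the 71 genes tested in both crosses, 12 were called higher in 2i in both. They make 28.6% of the 42 called in the B6 cross and 85.7% of the 14 called in the MSM cross. Over all genes the corresponding shares were 29.9% and 58.5%. The difference was above 0 in both crosses for 54 genes (76.1%, against 28.5% of all genes) and below 0 in both for 3. The 12, with the B6 and then the MSM difference, were led by Cox6b1 (0.78 and 0.70), Uqcr10 (0.73 and 0.52), Ndufb4 (0.70 and 0.58), Uqcrb (0.66 and 0.44) and Cox5a (0.59 and 0.89). Cox6a1 (0.58 and 0.40), Ndufa3 (0.57 and 0.40), Atp5j2 (0.45 and 0.47), Atp5c1 (0.43 and 0.40), Atp5k (0.43 and 0.54), Atp5g1 (0.42 and 0.45) and Cox7a2 (0.38 and 0.50) followed. All 4 complexes are among them. With only the 2i and S libraries in the MSM fit, Uqcrb, Cox6a1, Ndufa3, Atp5c1, Atp5g1 and Cox7a2 were not called there. A test of the difference between the crosses' responses called 1 of the 72 genes, Ndufa9, against 9.47% of all genes more positive and 2.11% more negative in the MSM cross. Ndufa9, an accessory subunit near the quinone site, measured 112 to 136 RPKM in B6 2i and 92.7 to 97.2 RPKM in B6 serum. In the MSM cross it measured 112 to 126 RPKM in 2i and 120 and 135 RPKM in S (difference of differences -0.46, SE 0.12, adjusted p = 0.0277). The call was lost under quantile normalization and under equal totals.

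**Figure D3:**
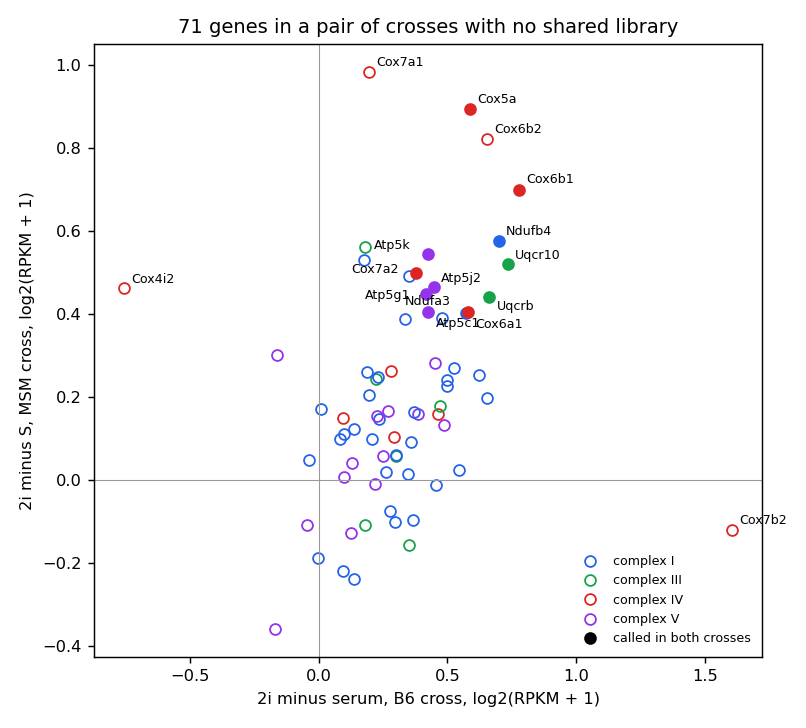
Difference of 2i from serum on the log2(RPKM + 1) scale in the B6 cross (horizontal) and of 2i from S in the MSM cross (vertical) for 71 genes. The 12 filled points were called in both crosses, and 54 of the 71 points lie above 0 on both axes.

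**Figure D4:**
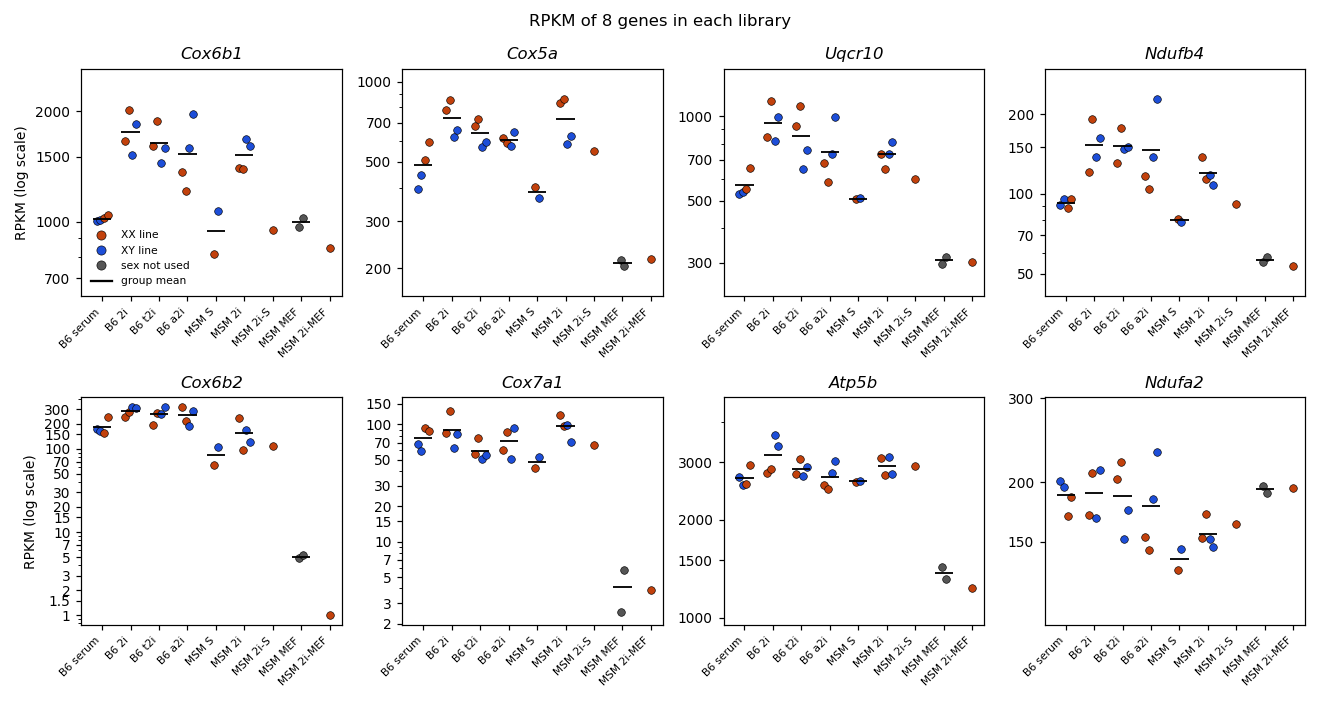
RPKM in each of the 26 libraries on a log axis for 8 of the genes. Cox6b1, Cox5a, Uqcr10 and Ndufb4 lie higher in 2i than in serum in both crosses, Cox6b2 and Cox7a1 lie far lower in the fibroblasts, and Ndufa2 is the gene called higher in the fibroblasts.

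Line 15 was measured in 2i and again, after 14 further passages, as the library labelled 2i-S. These are 1 library each, so this pair has no replicate check. In the 2i-S library 48 of the 72 genes were lower than in the 2i library of the line and 24 were higher, with a median log2 difference of -0.15 (all genes 0.07). Lower values made up 66.7% of the 72 genes and 44.2% of all genes. Against all 4 lines in 2i, the 2i-S library was below every one for 21 genes, against 19.4% of all genes, and above every one for 6, against 27.1%. Cox6b1 stood at 948 RPKM, Cox5a at 549, Uqcr10 at 597 and Ndufb4 at 91.8, each below the lowest 2i line. These genes were named above for being higher in the same 2i lines than in S, so their values here are no separate check. In the fit across the MSM libraries, which assumes that the lone library varies like the others, limma called 0 of 71 genes in either direction (1 higher and 7 lower before adjustment), against 0.811% and 0.409% of all genes.

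Fibroblasts held less of nearly all of these transcripts than ESCs. The 72 genes summed to 16300 and 15867 RPKM in MEF libraries 2 and 4, about 2.5% of all RPKM, against 3.57% to 3.76% in the 4 MSM 2i lines. The MEFs were set against the mean of the XX and XY lines in 2i, since sex was a term among the ESCs alone and the labels of the MEFs disagree on theirs. Of 71 genes tested, 57 were lower in MEFs than in 2i ESCs and 1 was higher, against 41.2% and 29.9% of all genes. The median was -0.75 (all genes -0.23). Against the fitted XY level of 2i alone, 59 were lower and 1 higher, with a median of -0.77 (share of all genes not given here). Both MEF libraries were below all 4 lines in 2i for 61 of the 72 genes (43.5% of all genes) and above for Ndufa2, Cox6a2 and Ndufs8 (32.7%). Abundant genes in general were lower: of 1180 others with a mean of at least 100 RPKM, 60% were lower and 20.5% higher, with a median of -0.62. Of the cytosolic ribosomal protein genes 73 of 74 were lower (median -0.95), and of the mitochondrial ones 58 were lower and 3 higher of 77 (-0.61). The RPKM total was also smaller, at 632942 and 641479 in MEFs against 750032 to 802360 in 2i, and scaling each library by its median ratio gave 44 lower and 2 higher, a median of -0.47 and 0.02 over all genes, of which 36.3% were then higher and 33.7% lower.

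The largest falls among the 71 genes were those of tissue forms of complex IV. Cox6b2 measured 232, 96.9, 168 and 122 RPKM in the 2i ESC lines 15, 2, 20 and 23, and 4.82 and 5.25 RPKM in MEFs (-4.61, SE 0.34, adjusted p = 8.58e-06). Its partner Cox6b1 differed by -0.61. Cox6b2 made up 6.5% to 14.2% of the pair's RPKM in 2i and 0.496% and 0.512% in MEFs. Cox7a1 measured 120, 96.4, 98.6 and 70.9 RPKM in 2i and 2.55 and 5.70 RPKM in MEFs (-4.30, SE 0.29, adjusted p = 5.28e-06), while Cox7a2 differed by -1.03. Cox7a1 held 19% to 26.7% of its pair in 2i and 1.71% and 3.61% in MEFs. Cox7b2 measured 28.1, 19.1, 3.00 and 6.21 RPKM in 2i and was listed at 0 in all 3 fibroblast libraries. For all 3 genes the 2i ESCs did not overlap the fibroblasts. The c-ring genes instead fell together, with Atp5g1 at -0.85, Atp5g2 at -0.76 and Atp5g3 at -1.01.

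All 4 complexes were lower in MEFs. In complex IV 11 of 12 tested genes were lower (median -0.98), in complex V 13 of 17 (-0.76), in complex III 7 of 8 (-0.64), and in complex I 26 of 34 were lower and 1 higher (-0.56). Cox5a measured 215 and 205 RPKM in MEFs against 586 to 861 RPKM in 2i (-1.77, SE 0.12). Ndufs6, a zinc-binding accessory subunit of complex I, measured 79.3 and 72.9 RPKM against 184 to 229 (-1.43, SE 0.10), and Cox7c measured 207 and 197 against 517 to 589 (-1.45, SE 0.14). None of the 3 overlapped. The catalytic Atp5b measured 1429 and 1318 RPKM in MEFs and 2750 to 3121 RPKM in 2i (-1.09), and its partner Atp5a1 was at -1.24. Ndufa2, a small accessory subunit of complex I, was the gene called higher, at 196 and 190 RPKM against 146 to 172 (0.31, SE 0.12, adjusted p = 0.0391), a call lost in 5 of the 6 fits without 1 library. Genes that passed in neither direction included Ndufa3, Ndufa8, Uqcrq, Cox4i2, Atp5d, Atp5e, Atp5l and Atp5s, and the core subunits of complex I Ndufs1 (-0.19) and Ndufs8 (0.18).

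Other mitochondrial genes were counted in MEFs against 2i ESCs, where 41.2% of all genes were lower and 29.9% higher. Of complex II and the electron carriers 8 of 9 were lower, and of the complex I assembly factors 9 of 13. Of the complex IV assembly factors 10 of 22 were lower and 2 higher, close to the share of all genes that were lower. Among the regulators 10 of 14 were lower and 1 higher. They include the transcription factor Nrf1 (-1.64), Tfam (-1.55) and Esrrb (-7.61), which also belongs to the pluripotency network, while Tfb2m was at 1.14. Idh2 was at -2.55, and the ATP synthase assembly factor Tmem70 was at 1.68.

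The fibroblasts labelled 2i MEF summed to 15617 RPKM for the 72 genes, or 2.50% of all RPKM, next to the other fibroblast libraries. Limma called 0 of 71 genes between it and the MEFs (0 higher and 2 lower before adjustment), against 0.126% and 0.327% of all genes, with a median of -0.03. It was below both MEF libraries for 39 genes and above both for 17, where all genes gave 41.5% and 33.1%. Cox6b2 stood at 0.997 RPKM, Cox7a1 at 3.87 and Cox5a at 216.

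Sex was compared across the 16 B6 lines, averaged over the 4 media. Of the 72 genes 4 were higher in XX and 14 lower, against 21.4% and 20.0% of all genes. The median was -0.09 (all genes -0.01), and of the abundant other genes 23.2% were lower. Of the complex I genes 1 was higher and 8 lower. Cox7b2 was higher in XX (lowest, median and highest of 8 lines 0.350, 5.31 and 13 RPKM, against 0, 0.502 and 4.46 in XY). Ndufa8 was also higher, at 95.7, 108 and 125 RPKM against 77.6, 88.8 and 102 (0.31, SE 0.06), and so were Cox5a (0.25) and Uqcrfs1 (0.16), the last not called under quantile normalization. The ranges of the sexes overlapped for all 4. Atp5sl was lower, at 18.2, 21.9 and 27.1 RPKM in XX and 32.5, 36.3 and 40.5 in XY (-0.68, SE 0.08, adjusted p = 1.42e-05). It was the only one of the 72 whose XX lines all lay below the XY lines (1.09% of all genes), and 0 had them all above (3.18%). Cox6a2 was at 0 to 0.582 RPKM in XX and 0.123 to 2.88 in XY (-0.82), Atp5o was at 408, 492 and 676 RPKM against 455, 742 and 855 (-0.35, SE 0.07), and Uqcrc1 was at -0.30. The 3 X-linked subunits left out of the 72 were all higher in XX, by 0.55 to 0.97. Median ratio scaling left 5 genes higher and 8 lower (share of all genes not given here).

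Within each sex of the B6 cross the difference between media kept its direction for most genes. The median of 2i less serum was 0.28 in XX lines (all genes -0.12), with 60 of 72 genes above 0. In XY lines it was 0.38 (all genes -0.07), with 64 above 0. For t2i the medians were 0.36 and 0.26 (all genes -0.10 and -0.06). For a2i the median was 0.05 in XX (all genes -0.06), with 43 above 0. It was 0.42 in XY (all genes -0.09), with 67 above 0. In the MSM cross, with a single S line per sex, the medians were 0.26 in XX and 0.09 in XY (all genes -0.05 and 0.004). Of 71 genes there, 59 in XX and 49 in XY were above 0. Whether the sexes differed in these responses was not tested.

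ESCs in 2i also differed between the crosses. With sex in the fit, 3 of the 72 genes were higher in the MSM lines and 8 lower, against 9.48% and 7.8% of all genes, with a median of -0.17 (all genes 0.02). Abundant genes in general were shifted alike: of 1250 others with a mean of at least 100 RPKM, 4.96% were higher and 14.8% lower, with a median of -0.12. Scaled to equal RPKM totals, 5 were higher and 7 lower, with a median of -0.01 (all genes 0.15), and 14.6% and 4.15% of all genes were called. Those totals count the mitochondrial loci listed at 0 in every MSM library, so by construction that scaling raises the other genes of MSM lines against B6. Every MSM line was above every B6 line for 1 gene (9.27% of all genes) and below for 11 (7.1%). Ndufc1, a complex I accessory subunit, measured 686, 720, 678 and 699 RPKM in the MSM lines and 472, 547, 453 and 491 RPKM in the B6 lines. The crosses were fully apart (0.51, SE 0.09, adjusted p = 0.00656). Ndufb2 measured 111, 124, 99.3 and 103 RPKM in the MSM lines and 159, 226, 164 and 179 RPKM in the B6 lines, apart in the other direction (-0.72, SE 0.12, adjusted p = 0.00483). Cox6b2 (-0.95), Ndufs5 (-0.61), Ndufs8 (-0.61) and Ndufa13 (-0.57) were also lower, and Atp5f1 (0.50) and Atp5g3 (0.44) higher. Cox6b2 and Atp5f1 were not called without the filter on low values. Among the c-ring genes Atp5g3 held a median of 54.1% of the family's RPKM in MSM 2i lines and 44.6% in B6 2i lines. Cross and library series cannot be told apart here, since the tables of the crosses also differ in the loci listed at 0.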

How the data were processed

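RNA was measured in 26 libraries made with a kit that keeps strand and selects mRNA, per the labels' protocols. The authors deposited 1 table of RPKM values for 21942 loci on mm10 with Ensembl gene IDs. TopHat2 2.1.0, Bowtie2 2.2.5, cutadapt 1.9.1 and Cufflinks 2.2.1 are named in the submitters' processing notes, without their roles. How reads were assigned to overlapping genes or near-identical copies and what the RPKM denominator holds are not given in the sources used here. RPKM is relative, so a rise of abundant genes lowers others.

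The deposited values were transformed to log2(RPKM + 1) and fitted with limma 3.58.1 (R 4.3.3) with a mean-variance trend over all genes at 1 RPKM or more in at least 2 libraries of the fit. Calls are two-sided with a Benjamini-Hochberg adjusted p under 0.05 over all genes tested. The B6 fit held 16 libraries as 8 group means of medium and sex. The MSM fit held 10 libraries as culture groups with an XX term among ESCs, MEFs were set against the mean of the XX and XY levels of 2i, and the spread of its unreplicated cultures (2i-S, 2i MEF) was taken from the replicated ones. The crosses were compared on the 8 libraries in 2i with sex as a term, and their responses by an interaction over 14 libraries. The script was tested on simulated data. Fibroblast share is the median over 16 markers of a library's level above the mean 2i level, relative to MEFs.

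Members and gene lists were chosen with earlier results of these data known. All 72 are counted, and 1 result by gene is not reported here. Named with values were catalytic core subunits, paralog sets, up to 4 called members with the largest rise and up to 4 with the largest fall in each comparison, up to 2 of each in each other list, and the 2 highest and 2 lowest members. Other genes named with values (such as Uqcrb, Cox6a1, Tfam, Ndufs4 and the 12 called in both crosses) were chosen after their values were seen. Alternatives were pseudocount, filter, scaling, quantile normalization, fibroblast subtraction, libraries in the fit and leaving out each library. Scaling to equal totals and setting MEFs against the XY level of 2i were added after seeing the data. Promoters came from RefSeq GRCm38.p6. Python 3.11.15 and matplotlib 3.10.9 were used. Reads were not counted here and depth is unknown beyond a rough ratio, so no counting interval is given.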

Additional observations from a re-analysis of the deposited data

Results flagged for a closer look

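Of 360 sets of 4 lines of 1 gene in 1 medium, 9 held a line far from the other 3 (a gap of over 0.829 of the set's range), where chance gives about 1 in 20. In B6 2i these were Cox4i2 at 1.56 RPKM and Ndufa7 at 584 RPKM. In B6 serum they were Cox7c at 617 RPKM, Uqcrq at 494 RPKM and Uqcr10 at 655 RPKM, and in B6 t2i Ndufc2 at 221 RPKM. In MSM 2i they were Cox4i2 at 0.140 RPKM, Cox6a2 at 0.296 RPKM and Cox5b at 844 RPKM. Ndufa9 was the gene whose difference of 2i from serum differed between the crosses, at -0.46 on the log2 scale for MSM less B6 in the limma interaction.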

How the results depend on the processing

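In the B6 cross every alternative run left most calls of 2i against serum higher (35 to 53 calls when 1 line was left out, 44 with all), and the median of the 72 genes exceeded that of all genes by at least 0.32 in all but quantile normalization (0.13). Leaving out 1 line gave 34 to 46 calls for t2i against serum, 17 to 36 for a2i against serum, 14 to 22 for XX against XY, 49 to 59 for MEFs against 2i, 2 to 12 for MSM 2i against S and 7 to 13 between the crosses. Removing fibroblast signal without scaling back gave 58 higher and 1 lower for B6 2i against serum. That step can only lower the serum libraries, so it raises the differences by construction and is no added check. Between t2i and 2i, 1 call became 0 with a pseudocount of 0.1 or with only the compared libraries and 2 with quantile normalization (0 to 1 without 1 line). Between a2i and 2i, 2 calls became 0 without the filter or with only the compared libraries, 4 with quantile normalization and 5 with either scaling to equal totals (0 to 4 without 1 line). For MSM 2i against S, 14 calls became 9 without the filter and 8 with only the compared libraries. The single call between the crosses' responses became 4 with equal totals and 2 with equal totals without ribosomal and mitochondrial genes, all higher in the MSM cross (0 to 2 without 1 line). Shares of all genes under these runs are not given in this section. The causes were not tested.

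Atp5b in B6 2i against serum turned to -0.11 under quantile normalization (adjusted p = 0.19). Ndufa4 in MSM 2i against S, at 0.02 and not called, turned to -0.05 without 2i line 15 and to -0.12 without S line 8 (0.17 without S line 12). Of 2301 values of 141 named differences under alternatives, 2053 kept direction and call, 241 lost the call, 4 gained it and 3 turned. No paired analysis was possible because the groups compared share at most 1 line number, that of line 15 (in MSM 2i, 2i-S and 2i MEF), whose values were given without a paired test.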
